A study of Mus musculus with 9 samples.

Results

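Pulmonary surfactant was followed here through 10 genes, the surfactant proteins Sftpa1, Sftpb, Sftpc and Sftpd, the lipid handling genes Abca3 and Lpcat1, the lamellar body and processing genes Lamp3 and Napsa, the phosphate carrier Slc34a2 and the transcription factor Etv5. The genes were chosen by name for these roles, and each gene's level was the sum of its deposited transcript rows. All 10 were present among the 27203 gene IDs of the table, in 17 transcript rows, and all 10 passed the filter of a mean of at least 0.1 FPKM (the fragment count of a transcript scaled to its length and to the size of the library).

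Surfactant is a film of phospholipid and protein at the air side of the alveolus that lowers surface tension and keeps small airspaces open at low volume. Alveolar type 2 cells make the lipid, load it into lamellar bodies together with SP-B and SP-C, secrete it by exocytosis and take much of it up again. SP-A and SP-D, the water-soluble members, are collectins that bind microbes and surfactant lipid. Loss of surfactant function is part of the classical description of lung injury by overstretch.

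Lung RNA came from male C57BL/6 mice aged 6 to 8 weeks in 3 groups of 3 libraries. Control mice were intubated without ventilation, and the VILI (ventilator-induced lung injury) mice were ventilated at a tidal volume of 20 ml/kg for 4 hours and killed directly afterwards (VILI 0 hours) or 6 hours later (VILI 6 hours). Because the control mice were not ventilated at any volume, ventilation and overstretch could not be told apart. All values were from whole lung, so fewer type 2 cells and less RNA per cell could not be told apart, and FPKM is a share of each library.

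Promoter sequence is shown for 3 of the genes: Sftpa1, which had the lowest P at VILI 0 hours, Lamp3, which had it at VILI 6 hours, and Sftpb. The groups of Sftpb overlapped in every comparison, as did those of Lamp3, Lpcat1, Napsa and Etv5. The 250 bases before the annotated start were read from RefSeq windows on GRCm38.p6, where 7 of the 10 genes had a window. They are printed 5′ to 3′ along the gene's own strand, for Sftpa1 at chr14:41131538-41131787 (plus strand), for Sftpb at chr6:72304360-72304609 (plus strand) and for Lamp3 at chr16:19706366-19706615 (minus strand). Capitals mark CTCAAG, a core of the binding site of NKX2-1 (the lung epithelial homeodomain factor), TGTTTAC, a core of FOXA sites, and AGAACA, which is the reverse complement of TGTTCT, a core of glucocorticoid receptor sites.
Sftpa1: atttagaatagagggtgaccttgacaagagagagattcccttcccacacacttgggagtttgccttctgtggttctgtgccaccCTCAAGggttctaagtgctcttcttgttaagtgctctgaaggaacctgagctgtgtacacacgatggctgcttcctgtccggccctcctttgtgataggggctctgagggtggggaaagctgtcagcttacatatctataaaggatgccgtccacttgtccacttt
Sftpb: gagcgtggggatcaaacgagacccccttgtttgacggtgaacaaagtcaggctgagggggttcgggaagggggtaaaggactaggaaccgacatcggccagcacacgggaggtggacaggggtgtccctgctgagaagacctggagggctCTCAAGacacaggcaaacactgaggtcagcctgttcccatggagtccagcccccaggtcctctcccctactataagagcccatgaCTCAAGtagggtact
Lamp3: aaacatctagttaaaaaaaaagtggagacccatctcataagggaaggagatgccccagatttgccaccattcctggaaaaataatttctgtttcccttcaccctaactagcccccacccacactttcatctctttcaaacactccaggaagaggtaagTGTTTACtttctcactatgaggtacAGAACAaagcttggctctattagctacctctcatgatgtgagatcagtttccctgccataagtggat
Both strands were searched, and the CTCAAG match lay 166 bases before the start in Sftpa1 and 100 and 15 bases before it in Sftpb. In Lamp3 the TGTTTAC match lay 92 bases and the AGAACA match 67 bases before the start. CTCAAG or its reverse complement was found in 13.3% of 32851 windows of the same length, TGTTCT in 16.1% and TGTTTAC in 3.17%, and a match is given as a description of the sequence. The ETS core CCGGAA, present in 12.0% of windows, was found among these genes in Abca3, 156 bases before the start, and TGTTTAC was also found, as its reverse complement, 183 bases before a start of Etv5.

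The genes were among the most abundant of the lung. Sftpc had the second highest mean level of all genes (rank 2, 10754 FPKM over the 9 libraries), Sftpa1 ranked 25, Sftpb 29, Slc34a2 40 and Sftpd 55, and the lowest of the 10, Etv5, ranked 1014 with 51.0 FPKM. Together they held 3.47% to 4.20% of all FPKM in a library. In the control lungs the order by level was Sftpc, Sftpa1, Sftpb, Slc34a2, Sftpd, Lamp3, Napsa, Lpcat1, Abca3 and Etv5, and the libraries of all 9 neighbouring pairs did not overlap. At VILI 0 hours 8 of 9 neighbouring pairs did not overlap, the exception being Abca3 and Lpcat1, which had exchanged places by their means. At VILI 6 hours 6 of 9 pairs did not overlap. The pairs that overlapped were Lamp3 with Napsa, Napsa with Lpcat1, and Lpcat1 with Abca3. Within each VILI 6 hours library Lpcat1 was above Abca3, at 133, 86.1 and 68.1 against 111, 82.3 and 65.7 FPKM. Lamp3 with Napsa and Napsa with Lpcat1 had no order that all of these libraries shared.

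Summed FPKM per library ran from 366360.3 to 388459, and the number of reads behind a value was not in the table, so precision was taken from the spread among libraries, which the limma fit estimates over all 9 libraries and moderates across genes. The library VILI 6 hours replicate 1 stood apart, with Hbb-bs (beta globin) at 172 FPKM against 1267 to 2189 in the other libraries and Scgb1a1 (club cell secretory protein) at 39012 FPKM against 22061 to 30538. Over all genes it was VILI 6 hours replicate 3 that lay farthest from the rest, with a Spearman correlation of 0.941 to 0.942 with the control libraries, 0.944 with replicate 1 and 0.973 with replicate 2, while replicate 1 correlated with control at 0.977 to 0.979 and with replicate 2 at 0.963. The 10 neutrophil markers summed to 110.1, 128 and 113 FPKM in control, to 699, 1106 and 941 at VILI 0 hours and to 606, 1186 and 2931 at VILI 6 hours. The 6 broad epithelial genes (Epcam, Cdh1 and keratins) summed to 289, 289 and 293 FPKM in control, to 374, 313 and 318 at VILI 0 hours and to 387, 343 and 405 at VILI 6 hours. Their part in the results below was not tested, except that leaving out either library and centring on the epithelial genes are given as values. Centring subtracts 1 value per library, so it shifts every gene of a comparison by the same amount. All 6 epithelial genes had a log2 fold change above 0 in both comparisons with control, so there the shift was downward for every gene.

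The first comparison, VILI 0 hours vs control, set the lungs at the end of high-volume ventilation against lungs that had not been ventilated. Sftpa1 had the lowest P of the 10 genes, at 1191 ± 86.0 FPKM (SD, n = 3) against 983 ± 23.9 in control, and Sftpd and Etv5 had the largest differences, a log2 fold change of 0.32 and -0.44. At an unadjusted P under 0.05, the threshold used in the study, 1 of 10 genes was called by limma (Sftpa1), where 16.2% of the 19378 genes tested were called. After Benjamini-Hochberg adjustment over all genes 0 of 10 were called, with 0.284% of all genes called, and the lowest adjusted p among the 10 was 0.240. The libraries of the groups did not overlap for 4 of 10 genes, all 4 higher at VILI 0 hours (Sftpa1, Sftpd, Abca3 and Slc34a2), beside 33.5% of all genes. The median log2 fold change of the 10 was 0.09 and that of all genes -0.07, and with libraries centred on the 6 epithelial genes the median of the 10 was -0.13.

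In VILI 6 hours vs control, which addressed the later stage after ventilation had ended, Lamp3 was lower, at 163 ± 24.6 FPKM against 201 ± 21.4 in control. It was the 1 of 10 genes with an unadjusted P under 0.05 by limma, where 20.4% of all genes were called. None of the 10 (0) had an adjusted p under 0.05, beside 0.702% of all genes, and the lowest adjusted p was 0.208. The libraries did not overlap for 2 of 10 genes, Sftpa1 higher and Sftpc lower, beside 24.6% of all genes. The median log2 fold change of the 10 was 0.03 and that of all genes -0.09, and it was -0.33 with libraries centred on the 6 epithelial genes.

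From VILI 0 hours to VILI 6 hours, 0 of 10 genes had an unadjusted P under 0.05 by limma, where 10% of all genes were called, 5.06% higher and 4.94% lower. With adjustment, 0 of 10 and 0% of all genes were called (1938 of all genes had an unadjusted P under 0.05), and the lowest adjusted p among the 10 was 0.583. The libraries did not overlap for 2 of 10 genes, Sftpa1 and Slc34a2, both lower at VILI 6 hours, beside 12.5% of all genes. The median log2 fold change was -0.08 against -0.02 for all genes. In all 3 comparisons of the main fit the 95% confidence interval of each of the 10 genes lay inside a 2-fold difference in either direction. No intervals are given for the alternative settings, where the log2 fold change of Etv5 reached -0.75 at VILI 6 hours vs control. With 3 libraries on each side the smallest two-sided p of an exact permutation test is 0.1, so a single gene could not pass 0.05 by that test. The comparisons with control share its libraries, so their values are given side by side and not as repeats of each other.

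**Figure D1:**
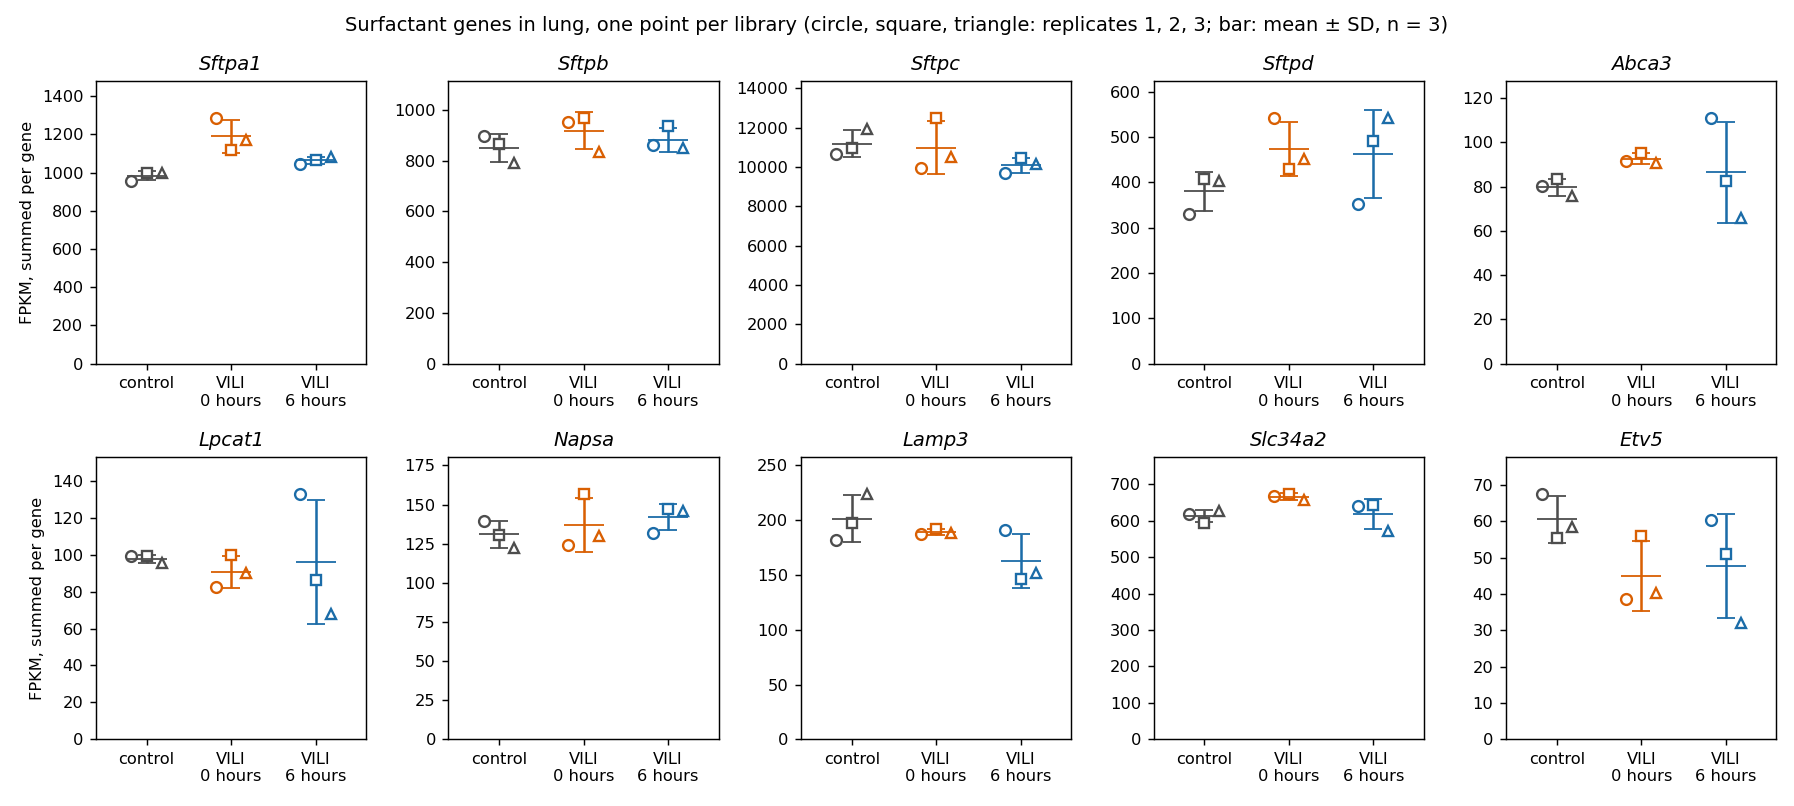
Level of each of the 10 surfactant genes in FPKM (vertical axes, from 0, a scale per gene) in the libraries of each group (grey, control; orange, VILI 0 hours; blue, VILI 6 hours), with the mean and SD (n = 3). Sftpa1 stands at 1119 to 1286 FPKM at VILI 0 hours above the control libraries at 955 to 997, and Lpcat1, Abca3 and Etv5 spread most at VILI 6 hours, with replicate 1 (circle) highest and replicate 3 (triangle) lowest.

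Among the collectins, Sftpa1 (chr14:41131782-41136452, plus strand, GRCm38) encodes SP-A, which binds surfactant lipid and opsonizes microbes. Its level was 955, 997 and 996 FPKM in control, 1286, 1119 and 1168 at VILI 0 hours and 1046, 1064 and 1083 at VILI 6 hours. Every VILI library was above every control library, and the VILI 6 hours libraries lay between the other groups. VILI 0 hours vs control gave a log2 fold change of 0.28 ± 0.10 (SE), 1.21-fold with a 95% interval of 1.03 to 1.42 (limma adjusted p = 0.240). The unadjusted call was lost without control replicate 1, control replicate 2 or VILI 0 hours replicate 1 (adjusted p = 0.523, 0.512 and 0.478). The VILI 6 hours value against control was 0.12 ± 0.10 (limma adjusted p = 0.538). With centring on the epithelial genes the values were 0.06 at VILI 0 hours and -0.25 at VILI 6 hours. A locus assembled on the opposite strand of Sftpa1 was at 0.503 to 2.08 FPKM, and whether the libraries kept strand is not settled. The 6 club cell markers, from cells that also make SP-A, SP-B and SP-D, summed to 27209 to 29783 FPKM in control, 31846 to 35085 at VILI 0 hours and 25552 to 44122 at VILI 6 hours.

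Sftpd (chr14:41172214-41185149, minus strand), the gene of SP-D, the second collectin, was at 329.9, 407 and 402 FPKM in control, 542, 429 and 452 at VILI 0 hours and 353, 491 and 541 at VILI 6 hours. The VILI 0 hours libraries were all above control, while at VILI 6 hours replicate 1 lay within the control range and the other libraries above it. The log2 fold change was 0.32 ± 0.17 at VILI 0 hours (limma adjusted p = 0.399) and 0.27 ± 0.17 at VILI 6 hours (adjusted p = 0.396). Its SD was 11.4% of the mean in control and 21.1% at VILI 6 hours.

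The hydrophobic surfactant proteins are SP-B and SP-C. Sftpb (chr6:72304610-72314371, plus strand) encodes SP-B, which packs lipid into lamellar bodies and spreads it at the air surface, and was at 896, 864 and 789.8 FPKM in control, 950.4, 968 and 833 at VILI 0 hours and 861, 936 and 848 at VILI 6 hours. All groups overlapped. Its log2 fold change was 0.11 ± 0.11 at VILI 0 hours (limma adjusted p = 0.671) and 0.05 ± 0.11 at VILI 6 hours (adjusted p = 0.803), and the interval at VILI 6 hours ran from 0.873-fold to 1.23-fold. With centring on the epithelial genes, which shifted every gene of a comparison alike, the log2 fold changes were -0.11 and -0.31.

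Sftpc (chr14:70520949-70524081, minus strand), whose product SP-C is made by type 2 cells and anchors surfactant membranes, was at 10649.9, 10948 and 11950.4 FPKM in control, 9939.7, 12504 and 10514 at VILI 0 hours and 9684, 10439 and 10157 at VILI 6 hours. VILI 0 hours had 2 libraries below the control range and 1 above it, and the VILI 6 hours libraries were all below control. For VILI 6 hours the log2 fold change was -0.15 ± 0.19, a fold of 0.903 with an interval of 0.676 to 1.21 (limma adjusted p = 0.667). The same values had an SE of 0.09 in the fit over transcript rows (adjusted p = 0.523), which estimates the spread from rows rather than genes. For VILI 0 hours it was -0.03 ± 0.19 (limma adjusted p = 0.953), and it was 0.08 with median-centred libraries. Centring on the epithelial genes gave -0.51 at VILI 6 hours.

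Napsa (chr7:44572380-44586862, plus strand) encodes napsin A, an aspartic protease that takes part in the processing of the SP-B precursor. Its level was 139.6, 130.5 and 122 FPKM in control, 124, 157 and 129.9 at VILI 0 hours and 132, 147 and 146 at VILI 6 hours. The groups overlapped, and the log2 fold change was 0.06 ± 0.11 at VILI 0 hours (limma adjusted p = 0.817) and 0.11 ± 0.11 at VILI 6 hours (adjusted p = 0.565).

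Abca3 (chr17:24351950-24410201, plus strand), the transporter that pumps phospholipid into lamellar bodies, was at 80.3, 83.3 and 75.7 FPKM in control, 91.4, 95.3 and 90.8 at VILI 0 hours and 111, 82.3 and 65.7 at VILI 6 hours. The VILI 0 hours libraries were tight and all above control, and those of VILI 6 hours included both the highest and the lowest library of the series. Against control, the log2 fold change at VILI 0 hours was 0.22 ± 0.16 (limma adjusted p = 0.551), with the SD at 2.65% of the mean at VILI 0 hours and 26.5% at VILI 6 hours. It was 0.08 ± 0.16 at VILI 6 hours (limma adjusted p = 0.789), where without replicate 1 it was -0.12. Centring on the epithelial genes gave 0.00 at VILI 0 hours and -0.28 at VILI 6 hours.

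Lpcat1 (chr13:73467197-73516422, plus strand) encodes the acyltransferase that remodels phosphatidylcholine into the saturated form typical of surfactant. It was at 99.0, 99.2 and 95.2 FPKM in control, 82.6, 99.8 and 90.0 at VILI 0 hours and 133, 86.1 and 68.1 at VILI 6 hours. The VILI 6 hours libraries differed 1.96-fold among themselves, with their mean of 95.8 ± 33.6 FPKM close to that of control at 97.8 ± 2.24. Relative to control the log2 fold change was -0.11 ± 0.20 at VILI 0 hours (limma adjusted p = 0.828) and -0.09 ± 0.20 at VILI 6 hours (adjusted p = 0.828), and with median-centred libraries these were 0.00 and 0.04. The VILI 6 hours value was -0.45 with centring on the epithelial genes.

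Lamp3 (chr16:19653378-19706375, minus strand), a membrane protein of lamellar bodies that mature dendritic cells also make, was at 182, 197 and 224 FPKM in control, 187, 192 and 188 at VILI 0 hours and 191, 146 and 152 at VILI 6 hours. Replicates 2 and 3 of VILI 6 hours were below every other library of the series, and replicate 1 lay within the control range. VILI 6 hours vs control gave a log2 fold change of -0.31 ± 0.12, a fold of 0.809 with an interval of 0.668 to 0.978 (limma adjusted p = 0.208). The unadjusted call was lost without control replicate 2 or 3 (adjusted p = 0.403 and 0.460) or VILI 6 hours replicate 2 or 3 (adjusted p = 0.438 and 0.425), and with median-centred libraries the log2 fold change was -0.18. With centring on the epithelial genes it was -0.67 (limma adjusted p = 0.0235), in a fit where 5203 of 19378 genes had an adjusted p under 0.05. The 5 other markers of mature dendritic cells summed to 21.5 to 24.8 FPKM in control, 13.6 to 22.2 at VILI 0 hours and 17.5 to 36.2 at VILI 6 hours, levels below that of Lamp3 in every library.

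Slc34a2 (chr5:53038081-53071664, plus strand), the sodium-phosphate cotransporter that takes up phosphate released from surfactant phospholipid, was at 619, 593 and 626 FPKM in control, 668, 674 and 657 at VILI 0 hours and 639.5, 644 and 572 at VILI 6 hours. The VILI 0 hours libraries were above all others. The log2 fold change was 0.12 ± 0.09 at VILI 0 hours (limma adjusted p = 0.565) and 0.01 ± 0.09 at VILI 6 hours (adjusted p = 0.952), and with centring on the epithelial genes these were -0.10 and -0.35.

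Etv5 (chr16:22381309-22439719, minus strand), an ETS transcription factor that maintains type 2 cell identity downstream of fibroblast growth factor signalling, was at 67.6, 55.3 and 58.4 FPKM in control, 38.6, 55.9 and 40.2 at VILI 0 hours and 60.3, 50.9 and 32.0 at VILI 6 hours. VILI 0 hours replicate 2 and VILI 6 hours replicate 1 lay in the control range, and the other VILI libraries below it. The log2 fold change was -0.44 ± 0.23 at VILI 0 hours (limma adjusted p = 0.375) and -0.38 ± 0.23 at VILI 6 hours (adjusted p = 0.356). It had the widest intervals of the 10 genes, from 0.515-fold to 1.05-fold at VILI 0 hours, and centring on the epithelial genes gave -0.75 at VILI 6 hours. Over the 20 alternative settings the log2 fold change at VILI 0 hours ranged from -0.66 to -0.33 and its P was under 0.05 in 6 of them.

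**Figure D2:**
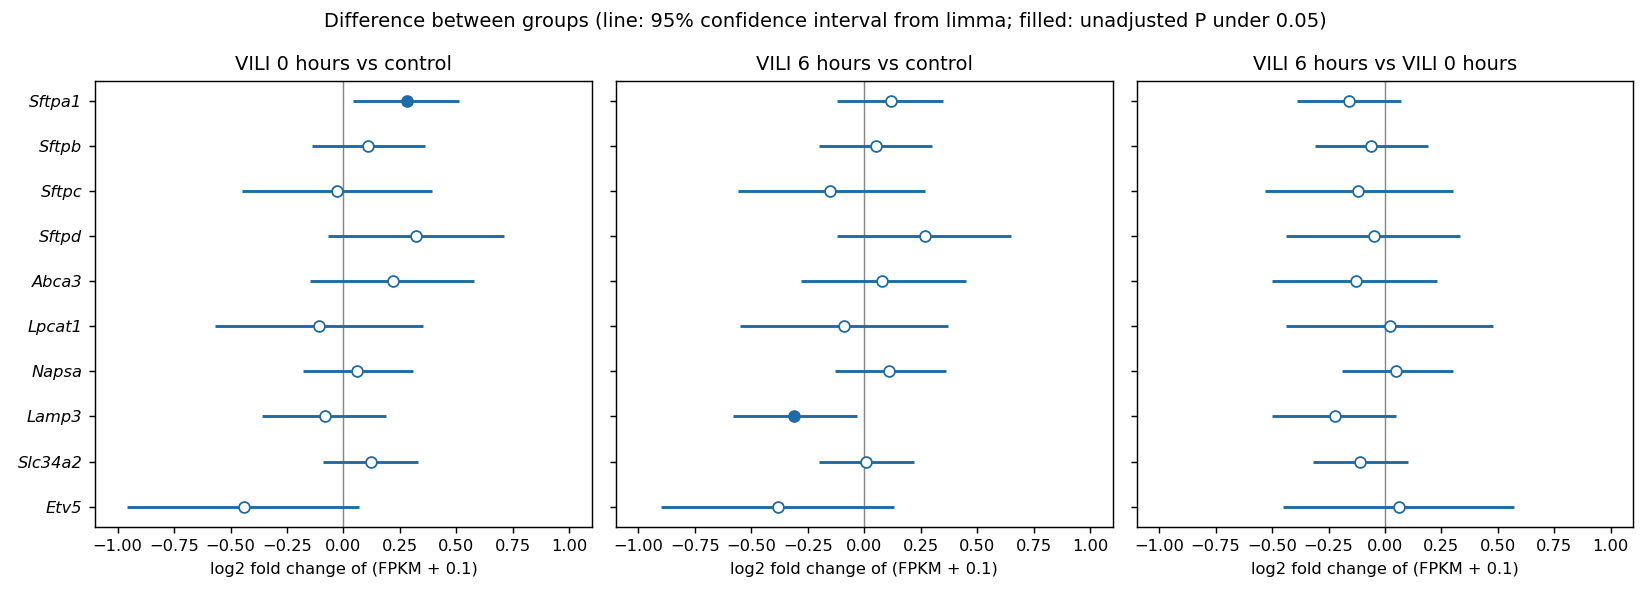
Log2 fold change of FPKM + 0.1 (horizontal axes) for each gene in the 3 comparisons, with 95% confidence intervals from limma and filled points for an unadjusted P under 0.05. Only Sftpa1 at VILI 0 hours (0.28) and Lamp3 at VILI 6 hours (-0.31) are filled, and no interval reaches a log2 fold change of 1 or -1.

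Within VILI 6 hours the spread among the 3 libraries had an order that several genes shared. Abca3, Lpcat1 and Etv5 were highest in replicate 1 and lowest in replicate 3, and Sftpd was lowest in replicate 1 and highest in replicate 3. The summed neutrophil markers, at 606, 1186 and 2931 FPKM, were lowest in replicate 1 and highest in replicate 3, and replicate 1 was the library that stood apart by its globin and club cell levels. The part of these differences in the gene levels was not tested.

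Leaving out VILI 6 hours replicate 1 altered the calls at VILI 6 hours vs control. Lamp3 then fell, with a log2 fold change of -0.43 ± 0.10 (limma adjusted p = 0.0176), and Sftpd rose, with 0.45 ± 0.14 (adjusted p = 0.0435). Lpcat1 was at -0.35 ± 0.12 (adjusted p = 0.0609) and Etv5 at -0.58 ± 0.22 (adjusted p = 0.0848). In that fit 4 of 10 genes had an unadjusted P under 0.05 beside 38.8% of all genes, and 4512 of 19378 genes had an adjusted p under 0.05 where 136 did with all libraries. From VILI 0 hours to VILI 6 hours, Lamp3 (-0.34 ± 0.10, adjusted p = 0.1) and Abca3 (-0.33 ± 0.11, adjusted p = 0.123) then passed the unadjusted threshold of 0.05, as did 22.4% of all genes. Between VILI 0 hours and control, Sftpa1, Sftpd, Etv5 and Abca3 did by limma (adjusted p = 0.107, 0.155, 0.211 and 0.212), beside 23.2% of all genes, since the omitted library entered the shared estimate of the spread. Sftpb, Sftpc, Napsa and Slc34a2 had a P over 0.05 in each comparison of that fit.

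Leaving out VILI 6 hours replicate 3 instead gave no call at VILI 6 hours vs control, with 0 of 10 genes at an unadjusted P under 0.05 beside 14.1% of all genes, and with 17 of 19378 genes at an adjusted p under 0.05. Several values then moved the other way. Abca3 was at 0.26 ± 0.13 (limma adjusted p = 0.394), Lpcat1 at 0.13 ± 0.17 (adjusted p = 0.758), Lamp3 at -0.26 ± 0.13 (adjusted p = 0.425), Sftpd at 0.14 ± 0.17 (adjusted p = 0.746) and Etv5 at -0.12 ± 0.17 (adjusted p = 0.781). Among the fits that left out a library, an adjusted p under 0.05 for Lamp3 and Sftpd came only without VILI 6 hours replicate 1.

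**Figure D3:**
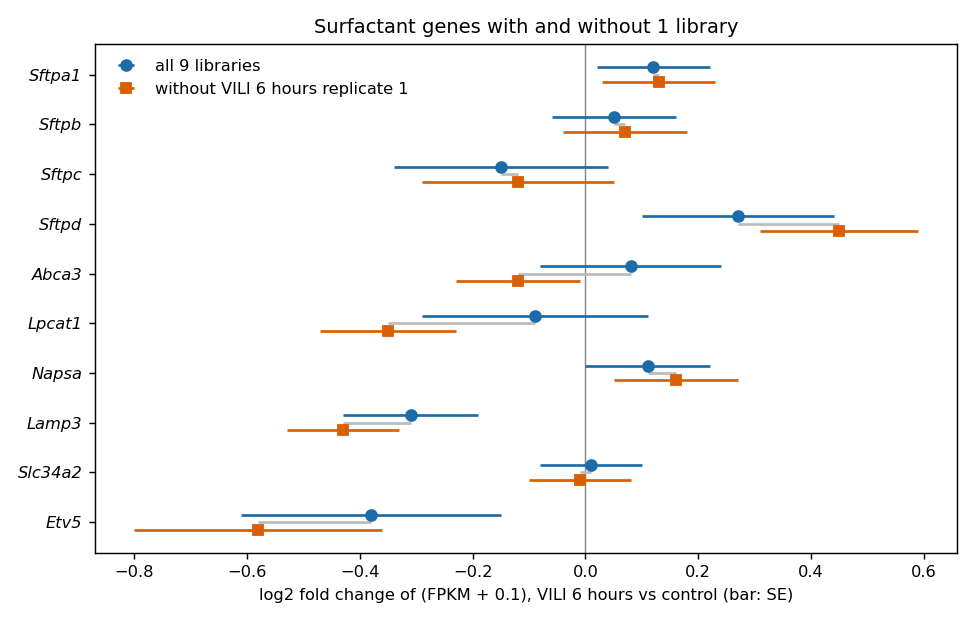
Log2 fold change of FPKM + 0.1 in VILI 6 hours vs control (horizontal axis, bars are SE) for the 10 genes with all 9 libraries and without VILI 6 hours replicate 1. Without it, Lpcat1 moves from -0.09 to -0.35, Sftpd from 0.27 to 0.45, Lamp3 from -0.31 to -0.43 and Abca3 from 0.08 to -0.12, while Sftpa1, Sftpb, Sftpc, Napsa and Slc34a2 move by less than their SE.

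The deposited table gave 17 transcript rows for these genes, without transcript names, and in most genes a single row carried the level. Sftpc, Sftpd, Lpcat1, Napsa and Lamp3 had a single row each, and in Slc34a2 the second row held 99.8% or more of the level in every library. The 2 Sftpb rows kept near constant shares, with the first at 36.1% to 42.8% and no separation of the groups. Both Sftpa1 rows were higher at VILI 0 hours than in control: the smaller row was at 55.3, 59.4 and 59.8 FPKM in control and 99.8, 74.2 and 70.6 at VILI 0 hours, and the larger at 899.7, 937 and 937 and 1187, 1045 and 1097. By limma over transcript rows their adjusted p was 0.281 and 0.230. At VILI 0 hours vs control 4 of 17 rows had an unadjusted P under 0.05 (2 rows of Sftpa1 and 2 of Etv5), beside 11.0% of all rows tested. The count was 1 of 17 (Lamp3) at VILI 6 hours vs control, beside 13.2%, and 2 of 17 (the larger Sftpa1 row and the third Abca3 row) from VILI 0 hours to VILI 6 hours, beside 7.40%. With adjustment the count was 0 of 17 in each comparison, beside 0.0509%, 0.0751% and 0.0214% of all rows.

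Abca3 was split differently in 1 library. In VILI 6 hours replicate 1 the first row held 67.4% of the level (74.9 FPKM) and the third 24.4% (27.1 FPKM), while in the other 8 libraries the third row held 76.9% to 87.7%. The second Abca3 row was at 9.05 FPKM in that library and listed at 0 in all others. Taking the third row, the one with the highest mean, in place of the sum gave a log2 fold change of -0.52 at VILI 6 hours vs control instead of 0.08. Etv5 showed a similar single-library entry, its second row being at 9.49 FPKM in VILI 0 hours replicate 2 and at 0.0105 to 0.0728 FPKM elsewhere, and that library had the highest Etv5 level of its group. Its first row, at 81.9% to 98.5% of the level, was lower at VILI 0 hours, with a log2 fold change of -0.52 ± 0.21 (limma adjusted p = 0.427).

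**Figure D4:**
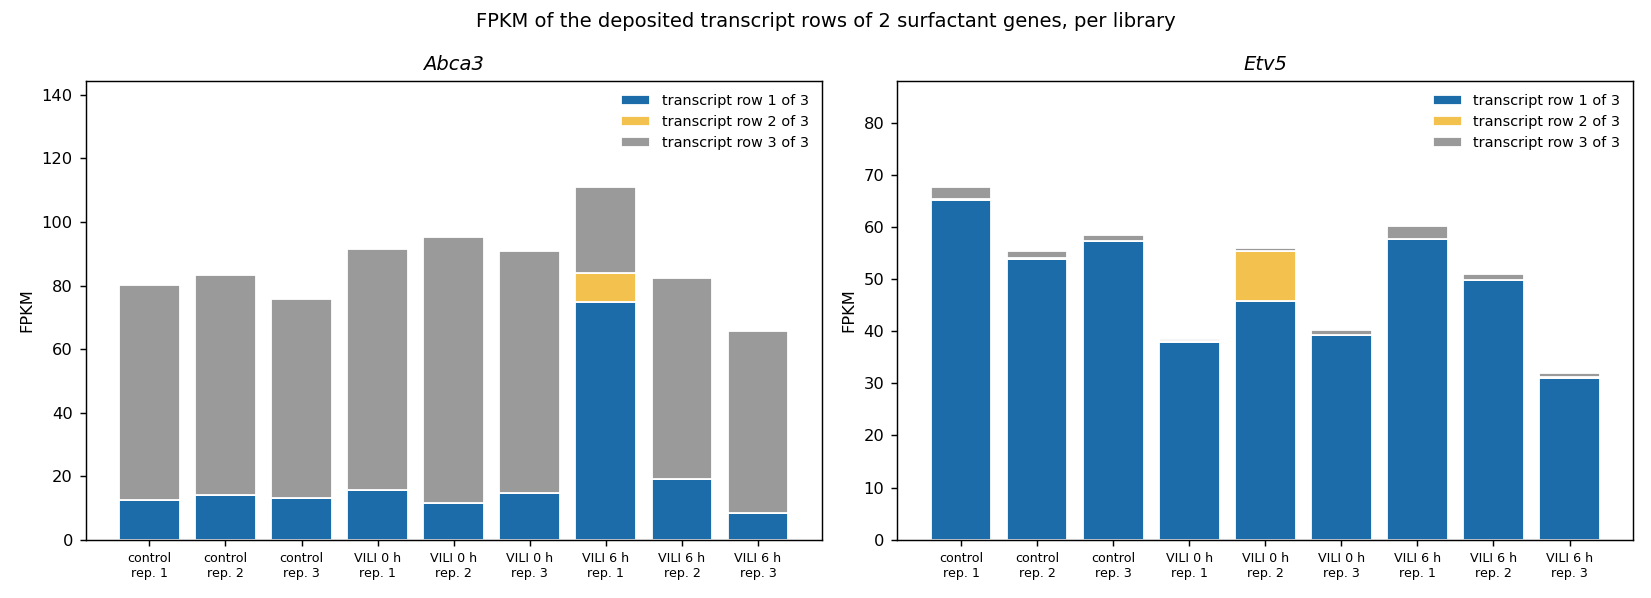
FPKM of the deposited transcript rows of Abca3 and Etv5 (stacked bars, vertical axes from 0) in each of the 9 libraries. In VILI 6 hours replicate 1 the first Abca3 row reaches 74.9 FPKM where it is at 8.50 to 19.0 elsewhere, and the second Etv5 row appears in VILI 0 hours replicate 2 with 9.49 FPKM.

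The wider pathway was read through 4 lists of genes and a list of other type 2 cell markers. The gene that passed adjustment was of the lamellar body and secretion list. Rab27a, a small GTPase of regulated exocytosis, rose at VILI 0 hours from 19.5, 23.6 and 19.9 FPKM in control to 38.4, 35.1 and 42.7, a log2 fold change of 0.88 ± 0.12 (limma adjusted p = 0.0344). It was at 30.1 ± 3.12 FPKM (SD, n = 3) at VILI 6 hours (adjusted p = 0.0862). The groups of the VILI 0 hours comparison did not overlap. Neutrophils also use Rab27a in granule release, and the neutrophil sums were higher in every VILI library than in control. Their part in the Rab27a level was not tested. The call held under 6 of 20 alternatives, with an adjusted p between 0.00301 and 0.191 over all of them. Leaving out a library ended it except for VILI 6 hours replicates 1 and 3, and the adjusted p was 0.186, 0.133 and 0.191 without control replicate 1, 2 or 3, 0.0733, 0.0758 and 0.166 without VILI 0 hours replicate 1, 2 or 3, and 0.0501 without VILI 6 hours replicate 2. Of the 17 genes of this list, 4 were higher and 1 lower with an unadjusted P under 0.05 at VILI 0 hours, and 4 higher and 0 lower at VILI 6 hours, beside 6.81% of all genes higher and 9.35% lower at VILI 0 hours and 8.17% and 12.2% at VILI 6 hours.

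Ctsh, the cathepsin that cleaves the SP-B and SP-C precursors, was at 73.8, 87.3 and 81.6 FPKM in control, 116, 172 and 184 at VILI 0 hours and 121, 204 and 181 at VILI 6 hours. All VILI libraries were above control, and the log2 fold change was 0.93 ± 0.22 (limma adjusted p = 0.0947) and 1.03 ± 0.22 (adjusted p = 0.0694). Adora2b, an adenosine receptor, went from 6.25 ± 0.356 to 4.20 ± 0.581 FPKM at VILI 0 hours (-0.57 ± 0.24, adjusted p = 0.290), and Hps4, of lysosome-related organelle assembly, was the lowest at VILI 6 hours (-0.30 ± 0.17, adjusted p = 0.342).

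Among 20 genes of surfactant lipid synthesis, 3 were higher and 2 lower with an unadjusted P under 0.05 at VILI 0 hours (16.2% of all genes in either direction), 2 and 2 at VILI 6 hours (20.4%), and 0 passed adjustment in either. Pcyt1a, the rate-limiting enzyme of phosphatidylcholine synthesis, was at 28.3, 28.0 and 26.5 FPKM in control, 13.5, 10.9 and 22.3 at VILI 0 hours and 12.6, 24.1 and 20.9 at VILI 6 hours. Every VILI library was below control (-0.89 ± 0.28 at VILI 0 hours, limma adjusted p = 0.179). Chpt1, which makes phosphatidylcholine in the last step of that route, was at 47.4 ± 2.22 FPKM in control and 31.6 ± 4.57 at VILI 6 hours (-0.59 ± 0.14, adjusted p = 0.0908). Lpin1, a phosphatidate phosphatase, was at 8.58 ± 0.778 FPKM in control, 22.1 ± 10.3 at VILI 0 hours (1.26 ± 0.30, adjusted p = 0.0994) and 10.9 ± 2.61 at VILI 6 hours. Elovl6, a fatty acid elongase, was the highest of the list at VILI 6 hours (1.82 ± 0.166 to 3.25 ± 1.02 FPKM, 0.76 ± 0.29, adjusted p = 0.190). The list's median log2 fold change was -0.03 and -0.05.

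Surfactant turnover was represented by 10 genes, of which 3 were higher and 0 lower with an unadjusted P under 0.05 at both times, beside 6.81% of all genes higher and 9.35% lower at VILI 0 hours and 8.17% and 12.2% at VILI 6 hours, and 0 passed adjustment. Csf2rb, the shared beta chain of the GM-CSF receptor by which alveolar macrophages clear surfactant, was at 8.09, 7.32 and 7.36 FPKM in control, 10.1, 19.5 and 18.2 at VILI 0 hours and 15.0, 17.6 and 24.5 at VILI 6 hours (1.29 ± 0.25, limma adjusted p = 0.0587). All VILI libraries were above control. Csf2ra, the alpha chain, was at 13.0 ± 0.460 FPKM in control and 20.4 ± 4.01 at VILI 6 hours (0.63 ± 0.17, adjusted p = 0.105). Neutrophils also express these receptor chains, and the neutrophil sums given above moved in the same direction. Of 7 alveolar macrophage markers 4 were higher with an unadjusted P under 0.05 and 0 lower at VILI 0 hours, 0 higher and 1 lower at VILI 6 hours, and 0 passed adjustment. Their sum was 249.8 to 311 FPKM in control, 379 to 448 at VILI 0 hours and 265 to 634 at VILI 6 hours, and the part of either cell type in the list's values was not tested. Mfsd2a, a lysophospholipid transporter, went from 1.45 ± 0.382 to 3.87 ± 1.83 FPKM at VILI 0 hours (1.25 ± 0.46, adjusted p = 0.224), and Bach2 and Pla2g15 were the lowest of the list at VILI 0 hours (-0.25 ± 0.23) and VILI 6 hours (-0.36 ± 0.28). The list's median log2 fold change was 0.26 and 0.21.

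Regulators of type 2 cells, 18 genes, gave 2 higher and 3 lower with an unadjusted P under 0.05 at VILI 0 hours and 4 and 4 at VILI 6 hours, beside 16.2% and 20.4% of all genes in either direction, with 0 passing adjustment and medians of -0.09 and -0.22. Nr3c1, the glucocorticoid receptor, was at 63.5, 63.8 and 71.7 FPKM in control, 49.6, 46.2 and 40.5 at VILI 0 hours and 54.3, 45.5 and 32.7 at VILI 6 hours, all VILI libraries below control (-0.61 ± 0.17 at VILI 6 hours, limma adjusted p = 0.115). Spry4, an inhibitor of fibroblast growth factor signalling, was at 9.75 ± 0.976 FPKM in control, 17.9 ± 5.45 at VILI 0 hours (0.83 ± 0.27, adjusted p = 0.194) and 19.5 ± 5.80 at VILI 6 hours (0.95 ± 0.27, adjusted p = 0.123). Foxa2, a forkhead factor of lung epithelium, was at 17.4 ± 1.28 FPKM in control and 11.9 ± 1.55 at VILI 0 hours (-0.55 ± 0.31, adjusted p = 0.419), and at VILI 6 hours ran from 7.65 to 22.2 FPKM with replicate 1 highest. Gata6 was at 18.0 ± 0.467, 12.4 ± 0.887 and 14.7 ± 3.52 FPKM in the 3 groups (-0.54 ± 0.16 at VILI 0 hours, adjusted p = 0.144). Fgf7, a growth factor for type 2 cells, was at 11.0 ± 0.637, 10.9 ± 2.63 and 7.37 ± 1.76 FPKM (-0.60 ± 0.22 at VILI 6 hours, adjusted p = 0.179).

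Other type 2 cell markers, 12 genes, gave 2 higher and 3 lower with an unadjusted P under 0.05 at VILI 0 hours and 0 higher and 3 lower at VILI 6 hours, where 6.81% and 9.35%, and then 8.17% and 12.2%, of all genes were higher and lower. None (0) passed adjustment, with medians of 0.01 and -0.14. Their sum was 1322 to 1786 FPKM in control, 1522 to 1567 at VILI 0 hours and 1273 to 1799 at VILI 6 hours, all overlapping. Cxcl15, the lung chemokine lungkine, was at 252 ± 46.1 FPKM in control and 439 ± 66.0 at VILI 0 hours (0.81 ± 0.28, limma adjusted p = 0.202). Il33, an alarmin, was at 34.3 ± 1.54 FPKM in control and 17.2 ± 4.64 at VILI 0 hours (-1.03 ± 0.36, adjusted p = 0.213), but 0.19 with the transcript row of the highest mean in place of the sum, and at VILI 6 hours it ran from 17.4 to 56.3 FPKM. Lyz1, a lysozyme, was at 218, 473 and 211 FPKM in control and 238, 126 and 131 at VILI 6 hours (-0.82 ± 0.34, adjusted p = 0.221), and Ppp1r14c was at 30.2 ± 1.24 and 23.6 ± 9.61 FPKM.

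Cell type lists gave the setting of these values, as counts with an adjusted p under 0.05 by limma and medians of the log2 fold change. Of 10 neutrophil markers 5 rose at VILI 0 hours and 7 at VILI 6 hours, beside 0.284% and 0.702% of all genes called in either direction, with medians of 3.53 and 4.07, and Ly6g, which defines these cells, was at 0, 0.0532 and 0 FPKM in control. For the epithelium (6 genes), type 1 cells (9), club cells (6), alveolar macrophages (7), mature dendritic cells (5), endothelium (6) and fibroblasts (5) the count was 0 at both times. Their medians at VILI 0 hours were 0.24, -0.11, 0.18, 0.74, -0.69, 0.17 and -0.28 in that order, and at VILI 6 hours 0.34, -0.21, 0.03, 0.22, -0.35, 0.09 and -0.34. At an unadjusted P under 0.05, 1 of the 6 epithelial genes was higher at VILI 0 hours and 4 at VILI 6 hours, beside 6.81% and 8.17% of all genes. From VILI 0 hours to VILI 6 hours, 5.06% of all genes were higher and 4.94% lower by an unadjusted P under 0.05. By that threshold 1 gene was lower in the lipid synthesis list (Lpin1), and 1 was higher (Adora2b) and 1 lower in the lamellar body and secretion list. The turnover list had 0, and the regulators (Fgf7) and other type 2 cell markers had 1 lower each. Of the cell type lists, alveolar macrophages had 3 lower, and endothelium and fibroblasts 1 lower each. Neutrophils and mature dendritic cells had 1 higher each, and epithelium, type 1 cells and club cells had 0. After adjustment the count was 0 in each list.

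**Figure D5:**
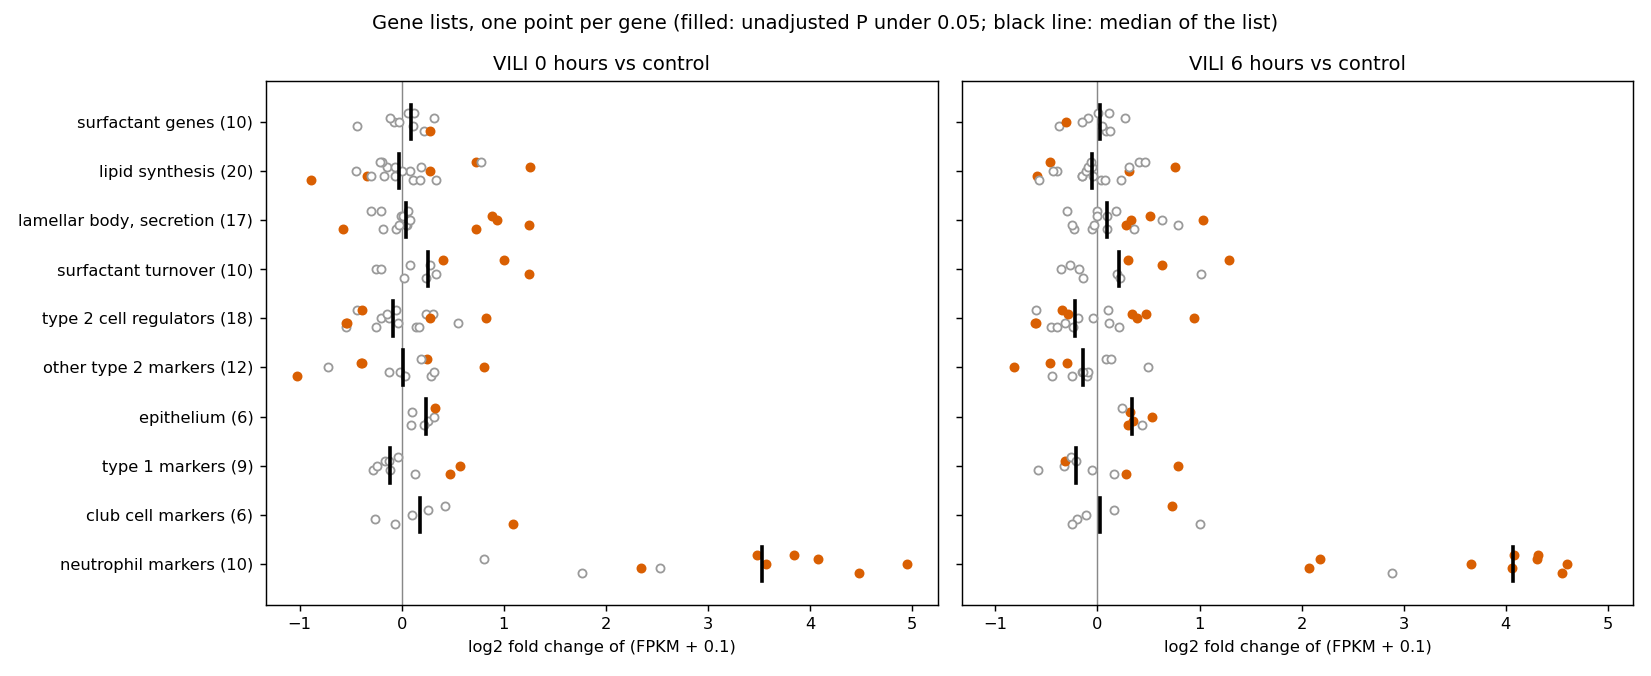
Log2 fold change of FPKM + 0.1 (horizontal axes) of each gene in the surfactant, pathway and cell type lists at VILI 0 hours and VILI 6 hours against control, with filled points for an unadjusted P under 0.05 and a black line at the list's median. The 10 surfactant genes lie between -0.44 and 0.32 at VILI 0 hours and between -0.38 and 0.27 at VILI 6 hours, with medians of 0.09 and 0.03, which are -0.13 and -0.33 with libraries centred on the 6 epithelial genes, and the neutrophil markers have medians of 3.53 and 4.07.

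The mean of the standardised levels of the 10 genes ran from -0.75 in VILI 6 hours replicate 3 to 0.85 in VILI 0 hours replicate 2, with the control libraries between -0.17 and -0.15. Of 14108 genes with a mean of at least 1 FPKM, those most like it over the 9 libraries were Polr2j (Pearson r = 0.919), the assembled locus XLOC_030291 (0.919), Mtmr6 (0.904), Gpr137b-ps (0.895) and Evi2 (0.895). They share the library with the surfactant genes and were picked as the highest of many, so the values describe these libraries.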

How the data were processed

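Whole-lung RNA-seq of 9 libraries (3 control, 3 VILI 0 hours, 3 VILI 6 hours) was analysed from 1 table of FPKM per transcript, deposited by the authors. Per the labels and the study's methods, the authors filtered the reads for quality, adapters and poly-N, mapped them to GRCm38 using TopHat2 2.0.9 (Bowtie2 2.0.6), built transcripts using Cufflinks and Scripture, and obtained FPKM from Cuffdiff 2.1.1. The labels name a TruSeq kit and the methods a directional, rRNA-depleted kit, so it is not settled whether reads of a gene and of a locus on the other strand were kept apart. Counts of reads were not used here. The table's position and length columns (start, end, length) were used only to place assembled loci.

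Groups came from the sample labels. Of 60108 rows under 27203 gene IDs, 23580 of 23713 Ensembl IDs matched GENCODE M21, and FPKM was summed per gene. For 19378 genes with a mean of at least 0.1 FPKM, log2(FPKM + 0.1) was modelled by group in 1 fit of the 9 libraries (limma 3.58.1, trended eBayes, R 4.3.3), with Benjamini-Hochberg adjustment over all genes tested. This scale understates the change of low genes. "Rose" and "fell" mean an adjusted p under 0.05. The fit was tested on simulated data. Exact permutation tests were run for single genes. Promoter windows were from RefSeq.

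The 10 genes and all lists were chosen with earlier results of these data known. From each list the text names each gene with an adjusted p under 0.05 and the genes with the highest and lowest log2 fold change among those with a mean of at least 1 FPKM, by comparison, except 1 gene that is counted in its list but not reported here. From the 6 epithelial genes and the other cell type lists only counts, sums and medians are given, except for Ly6g and Scgb1a1. Alternatives were pseudocounts of 0.01 and 1, a mean of at least 1 FPKM, no filter, median centring, scaling to the same sum, the 6 libraries of a comparison alone, untrended eBayes, a replicate block, the row with the highest mean FPKM, each library left out, and, chosen after seeing the data, centring on 6 epithelial genes.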

Additional observations from a re-analysis of the deposited data

Results flagged for a closer look

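An assembled locus without a gene name, XLOC_049594 (chr14:41131226-41135499, GRCm38), lies on the opposite strand of Sftpa1, across the promoter window printed for that gene, and was outside the comparisons of the 10 genes. It drew attention because its level at VILI 6 hours was above control, at 1.73 ± 0.397 FPKM (SD, n = 3) against 0.676 ± 0.184, with 0.877 ± 0.136 at VILI 0 hours. The libraries were at 0.503, 0.869 and 0.656 FPKM in control and 1.3, 2.08 and 1.821 at VILI 6 hours, without overlap, and the log2 fold change was 1.24 (limma adjusted p = 0.0701). Sftpa1 itself was at 983 ± 23.9 FPKM in control and 1064 ± 18.6 at VILI 6 hours. Without a settled record of strand in the libraries, reads of the locus and of Sftpa1 cannot be told apart.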

How the results depend on the processing

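Of 600 values of single genes under the 20 alternatives, 527 kept their direction and their side of an unadjusted P of 0.05, 21 passed it, 16 no longer did and 36 had the other sign. None of the 10 genes had an adjusted p under 0.05 at VILI 0 hours vs control or from VILI 0 hours to VILI 6 hours under any alternative. The causes of the shifts below were not tested. The number of the 10 genes with an unadjusted P under 0.05 at VILI 0 hours vs control (1) was 0 with a pseudocount of 1, no filter, libraries scaled to the same sum or the replicate block, 2 with median-centred libraries or the row of the highest mean FPKM (16.4% and 14% of all genes), 4 with only the 6 libraries compared (26.3%), and 0 to 4 with each library left out (10.2% to 23.2%). At VILI 6 hours vs control (1) it was 0 with median-centred libraries, only the 6 libraries compared, the replicate block or eBayes without a trend, 5 with libraries centred on 6 epithelial genes (47.8% of all genes), and 0 to 4 with each library left out (13.1% to 38.8%). From VILI 0 hours to VILI 6 hours (0) it was 1 with the row of the highest mean FPKM (9.17%), 2 with centring on the epithelial genes (11.5%) and 0 to 2 with each library left out (7.26% to 22.4%). At VILI 6 hours vs control 1 gene (Lamp3) had an adjusted p under 0.05 with centring on the epithelial genes, beside 5203 of 19378 genes, and 0 to 2 did with each library left out.

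Median centring moved the median log2 fold change of all genes from -0.07 to 0.05 and from -0.09 to 0.04 in the comparisons with control, and the share of higher among genes with an unadjusted P under 0.05 from 42.1% to 61.2% and from 40.1% to 58.1%. Centring on the epithelial genes moved it to 10.9% and 4.87%, and scaling to the same sum to 30.0% at VILI 0 hours and, from VILI 0 hours to VILI 6 hours, from 50.6% to 64.4%, where centring on the epithelial genes gave 18.0%. The median of the 10 genes was 0.20 and 0.16 with median centring, and -0.13, -0.33 and -0.23 in the 3 comparisons with centring on the epithelial genes. With each library left out it ranged from 0.01 to 0.12 at VILI 0 hours vs control, from -0.06 to 0.09 at VILI 6 hours vs control and from -0.13 to -0.04 from VILI 0 hours to VILI 6 hours. Either centring shifts every gene of a comparison equally, so the sign turns it gave below are not separate results of single genes.

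Signs turned at VILI 0 hours vs control with centring on the epithelial genes for Sftpb (-0.11), Abca3 (0.00), Napsa (-0.16) and Slc34a2 (-0.10), with median centring for Sftpc (0.08), Lpcat1 (0.00) and Lamp3 (0.03), with the row of the highest mean FPKM for Il33 (0.19), and over the fits with each library left out for Sftpc (-0.13 to 0.04) and Napsa (-0.04 to 0.13). At VILI 6 hours vs control they turned with centring on the epithelial genes for Sftpa1 (-0.25), Sftpb (-0.31), Sftpd (-0.10), Abca3 (-0.28), Napsa (-0.25) and Slc34a2 (-0.35), with the row of the highest mean for Abca3 (-0.52), with median centring for Lpcat1 (0.04), and with each library left out for Abca3 (-0.12 to 0.26), Lpcat1 (-0.35 to 0.13) and Slc34a2 (-0.02 to 0.07). From VILI 0 hours to VILI 6 hours they turned with centring on the epithelial genes for Lpcat1 (-0.12), Napsa (-0.09) and Etv5 (-0.08), with the row of the highest mean for Il33 (-0.30), and with each library left out for Sftpd (-0.18 to 0.13), Abca3 (-0.33 to 0.05), Lpcat1 (-0.24 to 0.24), Napsa (-0.01 to 0.15) and Etv5 (-0.13 to 0.32).

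The replicate numbers did not pair the libraries: deviations of same-numbered libraries correlated at -0.22 to 0.02. With the replicate number as a block, 0 of the 10 genes had an unadjusted P under 0.05 in each comparison, with 2816, 3485 and 1693 of all genes. With 3 libraries a group and no read counts, the intervals of all genes but Sftpa1 and Lamp3 included 0 in each comparison. That of Sftpa1 excluded 0 only at VILI 0 hours vs control and that of Lamp3 only at VILI 6 hours vs control. For Sftpc the SE of 0.19 was 0.09 in the fit over transcript rows.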

Other observations

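A second assembled locus, XLOC_045918 (chr14:41172022-41186485, GRCm38), lies opposite Sftpd and was at 0.355 ± 0.120 FPKM in control, 0.447 ± 0.103 at VILI 0 hours and 0.985 ± 0.527 at VILI 6 hours, a log2 fold change of 1.13 at VILI 6 hours vs control (limma adjusted p = 0.195). Its VILI 6 hours libraries were at 0.383, 1.21 and 1.36 FPKM, and those of Sftpd at 353, 491 and 541 FPKM. Loci opposite Abca3, Napsa, Lamp3 and Slc34a2 had an unadjusted P over 0.05 in both comparisons with control.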
